A study of Sus scrofa with 12 samples.

Results

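Matrix metalloproteases (MMPs), ADAM and ADAMTS proteases and the tissue inhibitors of metalloproteases (TIMPs) were examined in RNA from scrapings of pig jejunal mucosa. The family was taken by gene symbol, as every row of the count table named MMP, ADAM or ADAMTS with a number, or TIMP1 to TIMP4. This gave 62 of the 23909 genes in the table: 19 MMPs, 4 TIMPs, 20 ADAMs and 19 ADAMTS genes. More than 1 CPM (the count of a gene scaled to the size of its library) in at least 2 samples was found for 49 of the 62, namely 16 MMPs, all 4 TIMPs, 13 ADAMs and 16 ADAMTS genes. Of these, 3 would not have passed without a particular group, namely ADAM7 (neonatal control), ADAM2 (juvenile ischemic) and MMP17 (1 sample in each of the control groups).

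The 12 samples fell into 4 groups of 3. Yorkshire cross pigs were neonatal, aged 2 wk, or juvenile, aged 6 wk. Under general anesthesia, loops of distal jejunum had their local mesenteric vessels tied for 30 min in the ischemic groups, and neighboring loops with intact flow gave the control groups, so that all 4 groups shared the anesthesia and the surgery. Samples were lettered A to C in both juvenile groups and A, C or D in both neonatal ones. The labels did not say whether a letter stands for one pig, so p-values measure the spread between these samples.

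MMPs are zinc-dependent enzymes that cut collagens, laminins and other matrix proteins, and TIMPs bind to their active sites and block them. ADAMs are mostly membrane proteins that release growth factors, cytokines and adhesion molecules from the cell surface, and ADAMTS enzymes are secreted relatives that trim procollagens and cleave proteoglycans. In intestinal mucosa much of the MMP and ADAMTS transcript is known to come from fibroblasts and other cells of the lamina propria, whereas ADAM10 is abundant in epithelium. Because scrapings hold many cell types, fewer cells of a type and less RNA per cell cannot be told apart in any value below.

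Total counts on genes ranged from 1490898 to 17694393 in juvenile control, from 5849108 to 13679407 in juvenile ischemic, from 2045483 to 9913462 in neonatal control and from 1652066 to 12116480 in neonatal ischemic mucosa. A count of 3, used as the floor of detection and covering counting error only, equaled 0.170 CPM in the deepest library, juvenile control B, and 2.01 CPM in the shallowest, juvenile control C. Multiply aligned reads made up 46.4% of juvenile control C and 39.8% of neonatal control D, and 6.86% to 14.9% of each other library. The 62 genes held between 0.0889% (juvenile control A) and 0.257% (neonatal control C) of the counts of a library. Neonatal control C was thus the library richest in these transcripts.

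Of the 13 genes that did not pass, ADAM21, ADAM29 and MMP27 had no count in any library. The other 10 were MMP7, MMP8, ADAM11, ADAM18, ADAM20, ADAM30, ADAM32, ADAMTS16, ADAMTS18 and ADAMTS20. MMP7, matrilysin, had 1 count over the 12 libraries. MMP1, the interstitial collagenase, had no row under that name and was not analysed here.

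Several of the MMP genes lie close together on chromosome 9 of the pig genome (Sscrofa11.1), among them MMP7, MMP20, MMP27, MMP8, MMP3, MMP12 and MMP13, all on the minus strand between the start of MMP7 at 33214590 and the end of MMP13 at 33616700. MMP3 spans chr9:33446969-33453995, and RefSeq lists MMP10 as another name of this pig gene. The promoters of 3 neighbors that differed with age are shown, as the 250 bases before the annotated start and the 50 bases from it on, read from the RefSeq genome on the minus strand, 5′ to 3′. Capitals mark TGANTCA, the core of the site bound by AP-1, the dimer of FOS and JUN proteins. The motif reads the same on both strands, and no other motif was searched.

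MMP3 (chr9:33453946-33454245, minus strand): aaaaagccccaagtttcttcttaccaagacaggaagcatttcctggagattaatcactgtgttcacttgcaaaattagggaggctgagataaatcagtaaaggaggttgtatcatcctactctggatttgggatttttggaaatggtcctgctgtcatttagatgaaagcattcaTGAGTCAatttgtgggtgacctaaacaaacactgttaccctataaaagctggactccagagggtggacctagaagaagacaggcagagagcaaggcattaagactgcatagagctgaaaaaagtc
MMP12 (chr9:33483581-33483880, minus strand): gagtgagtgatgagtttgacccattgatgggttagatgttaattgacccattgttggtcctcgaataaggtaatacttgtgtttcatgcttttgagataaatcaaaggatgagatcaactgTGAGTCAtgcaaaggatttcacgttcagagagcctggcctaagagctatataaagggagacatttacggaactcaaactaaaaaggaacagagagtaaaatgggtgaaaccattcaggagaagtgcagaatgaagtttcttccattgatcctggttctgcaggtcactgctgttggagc
MMP20 (chr9:33307998-33308297, minus strand): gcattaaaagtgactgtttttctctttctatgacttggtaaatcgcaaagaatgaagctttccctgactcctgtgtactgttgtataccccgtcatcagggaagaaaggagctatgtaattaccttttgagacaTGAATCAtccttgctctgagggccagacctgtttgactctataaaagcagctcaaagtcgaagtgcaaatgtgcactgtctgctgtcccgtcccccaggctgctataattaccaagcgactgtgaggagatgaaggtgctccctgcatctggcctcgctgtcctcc

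The match began 75 bases before the start in MMP3, 129 bases before it in MMP12 and 116 bases before it in MMP20. Of the 58 members with a RefSeq start, 8 held the motif in this window, against 1185 of 19541 protein-coding genes (6.06%). These were 5 of 19 MMPs (the 3 shown, MMP9 and MMP19), TIMP4, ADAM7 and ADAMTS1. A match is a run of letters and was not shown to be bound in these samples.

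Levels were compared between genes per length, as CPM divided by the kilobases of RefSeq exons (RPKM). As means over the 12 samples, MMP3 (stromelysin-1, which cleaves laminin, proteoglycans and other MMP precursors) led at 114 RPKM, followed by ADAM10 at 102. ADAM9 and MMP2 at 24.2 and MMP14 at 23.5 came next, with ADAM19 at 15.3, MMP15 and TIMP3 at 14.2, TIMP2 at 13.3, MMP12 at 10.7, TIMP1 at 10.6 and ADAM17 at 9.94. All other members stood at 5.07 RPKM or lower. The order differed between groups, since ADAM10 stood above MMP3 in juvenile control (137 ± 23.5 against 62.5 ± 12.2 RPKM; SD, n = 3), level with it in neonatal ischemic (73.1 ± 9.81 against 72.6 ± 49.9) and below it in juvenile ischemic (119.7 ± 17.3 against 162 ± 40.8) and neonatal control mucosa (80.1 ± 2.67 against 159 ± 78.7). Neighbors in the order over all samples overlapped widely, since MMP3 alone ranged from 38.3 to 249 RPKM over samples and ADAM10 from 62.0 to 161. Of the ADAMTS genes, ADAMTS6 stood highest at 5.07 RPKM.

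**Figure D1:**
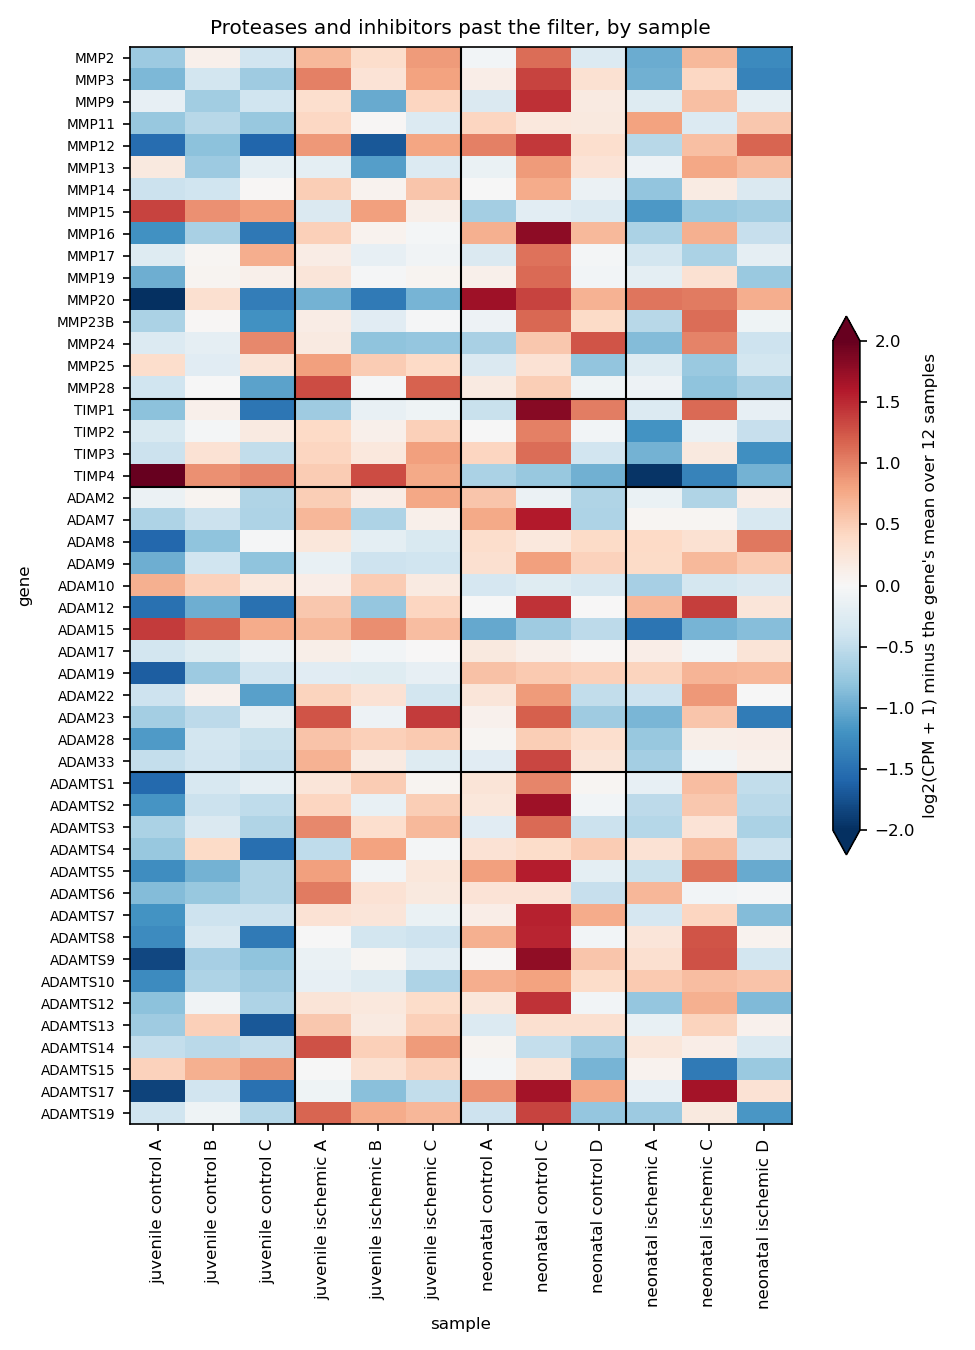
Each row is 1 of the 49 members past the filter and each column 1 of the 12 samples; color gives log2(CPM + 1) minus the mean of that gene over the samples, with lines between families and groups. Most rows are darker red in juvenile ischemic than in juvenile control samples, neonatal control C is red in most rows, and TIMP4, ADAM15 and MMP15 run the other way with age.

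The first question was whether ischemia moved these genes in juvenile mucosa. Of the 49 members, 40 were higher and 9 lower in ischemic mucosa, with a median log2 fold change of 0.81 against -0.01 over all 14191 genes tested. With the quasi-likelihood test of edgeR, 0 members and 0% of all genes passed an adjusted p under 0.05, the threshold for a call throughout. At an unadjusted p under 0.05, 23 members were higher, against 10.3% of all genes, and 1 (MMP15) was lower, against 8.29% of all genes. The 3 ischemic samples all lay above all 3 controls for 23 members (12.4% of all genes). The 40 higher and these 23 without overlap include ADAM2, which would not have passed the filter without the juvenile ischemic samples. ADAM2 thus carries no weight in these counts. DESeq2 called 11 members, all higher, against 2.16% of genes called higher, among them MMP3, MMP2, MMP12, ADAM12, ADAM28, ADAMTS3, ADAMTS5, ADAMTS6, ADAMTS14 and ADAMTS19. Without juvenile ischemic B, edgeR called 6 members and 1.29% of all genes, and without juvenile control B the median was 1.38 with 0 members and 0.585% of all genes called. None of these fits paired samples by letter. With the letter as a replicate block edgeR did call members, and those counts are given with the processing below.

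In neonatal mucosa the same comparison gave 41 members lower and 8 higher, with a median of -0.53, against -0.02 over all genes. No member and 0% of all genes were called by edgeR or by DESeq2. At an unadjusted p under 0.05, 6 members were lower (1.68% of all genes) and 0 higher, and for 3 members all ischemic samples lay below all controls (2.71% of all genes). The 41 lower include ADAM7 and MMP17, which would not have passed the filter without the neonatal controls, and ADAM7 is also among the 6. Neither gene carries weight in these counts. Without neonatal control C the median was -0.17, with 32 members lower and 17 higher, and without neonatal ischemic C it was -0.92.

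Whether the effect of ischemia depended on age was tested by fitting the 12 samples together, as the log2 fold change in neonates minus that in juveniles. This difference was below 0 for 44 of 49 members, with a median of -1.37 against 0.08 over all genes, but edgeR called 0 members and 0% of genes. The 44 include ADAM2 and ADAM7. Each passed the filter through a group whose high level lowers this difference, so neither carries weight in the count. At an unadjusted p under 0.05, 22 members were below 0 (6.89% of all genes) and 0 above. Fitted without pairing by letter, DESeq2 called MMP3 and MMP16, both below 0, as it did 0.585% of all genes. With the letter as a replicate block DESeq2 called more members and edgeR still 0, as given with the processing below. Without neonatal control C the median was -0.98, and without juvenile control B it was -1.94.

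In control mucosa, 15 members were higher in neonates, against 7.03% of genes called higher, and 3 were lower, against 12.5% called lower. The 15 include ADAM7, which would not have passed the filter without the neonatal controls, so its call carries no weight in this count. The median over the 49 members was 1.08, against 0.03 over all genes. Higher in neonates were the MMPs MMP3, MMP11, MMP12 and MMP16, the ADAMs ADAM7, ADAM9, ADAM12 and ADAM19, and the ADAMTS genes ADAMTS2, ADAMTS5, ADAMTS7, ADAMTS8, ADAMTS9, ADAMTS10 and ADAMTS17. MMP15, TIMP4 and ADAM15 were lower. With a group reduced to 2 samples, 7 members were called without juvenile control A (8.69% of all genes) and 7 without neonatal control C (12.2% of all genes), against 19.6% of all genes with all 6 samples. The medians of the members were then 0.88 and 0.73. Without both libraries rich in multiply aligned reads, 7 members were higher (2.57% of all genes) and 3 lower (8.55% of all genes). The calls lost there were MMP3, MMP11, ADAM9, ADAMTS2, ADAMTS7, ADAMTS8, ADAMTS9 and ADAMTS17 (adjusted p from 0.0509 to 0.0915).

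In ischemic mucosa 4 members (8.16%) were higher in neonates, against 16.6% of all genes called higher, and 11 (22.4%) were lower, against 16.6% called lower. The 15 calls among 49 members were in total near the share of 33.2% over all genes. The median was -0.47, against -0.01 over all genes, and with a library left out it ran from -0.68 (without neonatal ischemic C) to -0.20 (without neonatal ischemic D). MMP20, ADAM9, ADAM19 and ADAMTS10 were higher, and MMP3, MMP15, MMP25, MMP28, TIMP2, TIMP3, TIMP4, ADAM10, ADAM15, ADAMTS3 and ADAMTS19 were lower. Leaving out juvenile ischemic A or juvenile ischemic C gave 8 members each, with 23.6% and 23.0% of all genes called, against 33.2% with all 6 samples. One fit of 12 samples called 11 members and 26.3% of all genes. MMP3, TIMP2, TIMP3 and ADAMTS3 lost the call there (adjusted p from 0.0590 to 0.0771). Both age comparisons together called 26 members, of which 7 were called in both, that is 38.9% of the calls in control and 46.7% of those in ischemic mucosa. Over all genes, 1924 were called in both, or 69.3% of the 2776 calls in control and 40.8% of the 4718 in ischemic mucosa. ADAM9, ADAM19 and ADAMTS10 were higher and ADAM15, MMP15 and TIMP4 lower in neonates in both, and MMP3 was higher in control and lower in ischemic mucosa. Each group entered an ischemia and an age comparison, so that these comparisons share samples.

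**Figure D2:**
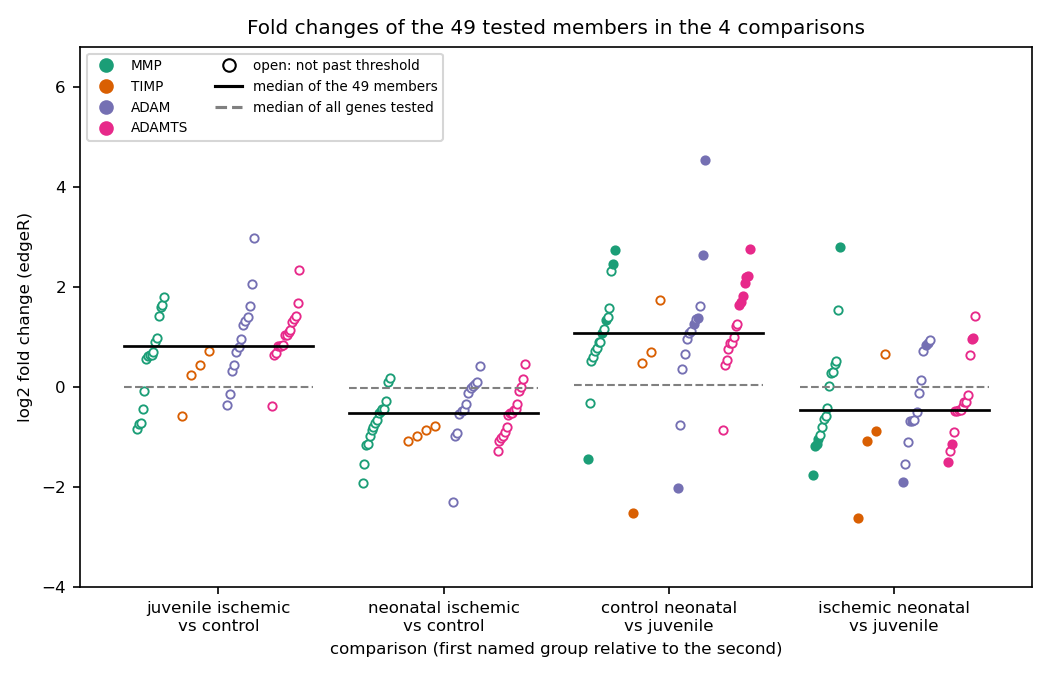
Each point is the log2 fold change of 1 of the 49 members in 1 of 4 comparisons, by family, filled where the adjusted p of edgeR was under 0.05; the solid bar is the median of the members and the dashed bar that of all genes tested. The medians lie at 0.81, -0.53, 1.08 and -0.47, on alternate sides of 0.

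Among the stromelysins, MMP3 showed the crossed pattern most plainly. MMP3 stood at 85.4, 125 and 97.5 CPM in juvenile control samples A, B and C and at 324, 193 and 281 in juvenile ischemic samples. In neonates it stood at 175, 409 and 197 CPM in control samples A, C and D and at 81.7, 213 and 62.9 in the ischemic ones. All juvenile ischemic samples were above the juvenile controls, whereas in neonates 1 ischemic sample, C, exceeded 2 of the controls. The log2 fold change (± SE) with ischemia was 1.42 ± 0.27, adjusted p = 0.0742 in juveniles and -1.14 ± 0.50, adjusted p = 1 in neonates. Relative to juveniles, neonates had 2.54-fold more in control mucosa (log2 fold change 1.34 ± 0.36, adjusted p = 0.0274) and 2.27-fold less in ischemic mucosa (log2 fold change -1.18 ± 0.41, adjusted p = 0.0471). The first of these calls was lost without juvenile control A, B or C or neonatal control C (adjusted p from 0.0553 to 0.102). It was also lost without both libraries rich in multiply aligned reads (adjusted p = 0.0690). The second was lost without juvenile ischemic A, B or C or neonatal ischemic A or D (adjusted p from 0.0618 to 0.153), and the ischemic groups overlapped. With no sample left out, the second call was also lost with RLE normalization (adjusted p = 0.0589), other filters (0.0503 and 0.0688) or one fit of 12 samples (0.0609).

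MMP12, the macrophage elastase, had 3.34, 6.04 and 3.14 CPM in juvenile control and 21.8, 2.84 and 20.5 in juvenile ischemic samples. It had 24.0, 32.0 and 14.7 CPM in neonatal control and 7.51, 17.8 and 27.0 in neonatal ischemic samples. All neonatal controls thus lay above all juvenile controls (log2 fold change 2.45 ± 0.41, adjusted p = 0.00355), a call that held when any one sample was left out. Juvenile ischemic B stayed at the control level while A and C were far above it. Of the macrophage markers summed, C1QB was the most abundant, at 169 ± 76.3, 213 ± 30.3, 194 ± 84.2 and 127 ± 47.0 CPM in juvenile control, juvenile ischemic, neonatal control and neonatal ischemic mucosa (SD, n = 3). The markers did not move together. In ischemic neonates C1QB and C1QA were called lower (log2 fold changes -0.75 and -1.42) and CD163 higher (1.28 ± 0.31, adjusted p = 0.00931). Between the controls edgeR called 0 of the 6 markers. The part of macrophages in the MMP12 values was not tested. MMP11, stromelysin-3, was also higher in neonatal controls (log2 fold change 1.07 ± 0.31, adjusted p = 0.0384), but lost that call whichever sample was left out, the adjusted p then reaching 0.141 without juvenile control A.

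MMP20, known as enamelysin from its role in tooth enamel, was scarce in juveniles, at 0, 4.80 and 0.786 CPM in control and 1.43, 0.747 and 1.44 in ischemic samples. Neonatal samples held 14.2, 10.9 and 6.58 CPM in control and 8.86, 8.61 and 6.72 in ischemic mucosa. In ischemic mucosa the groups did not overlap, and the log2 fold change of neonates against juveniles was 2.79 ± 0.41, adjusted p = 8.25e-04, the largest increase among the members there. In control mucosa it was 2.31 ± 1.05, adjusted p = 0.163, and there juvenile control B, at 4.80 CPM, came closest to the neonates. MMP28, epilysin, an MMP of epithelia, had 8.30, 2.69 and 7.53 CPM in juvenile ischemic against 2.50, 1.15 and 1.40 in neonatal ischemic samples, a log2 fold change of -1.77 ± 0.52, adjusted p = 0.0231. Every juvenile value was above every neonatal one, and the call was lost without juvenile ischemic A or C or neonatal ischemic C or D (adjusted p from 0.0528 to 0.0934). In the controls MMP28 was at 1.87, 2.73 and 0.786 CPM in juveniles and 3.26, 4.27 and 2.53 in neonates.

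The gelatinases, which cut denatured and basement membrane collagen, had no adjusted p under 0.05 with edgeR. MMP2 was at 39.3, 70.9 and 50.3 CPM in juvenile control and 104, 84.8 and 119.6 in juvenile ischemic samples, with no overlap (log2 fold change 0.98 ± 0.26, adjusted p = 0.108, and 0.0319 with DESeq2). In neonates it was at 63.2, 144 and 54.7 CPM in control and 32.7, 104 and 26.6 in ischemic samples, where the 2 replicates named C were the highest of their groups. MMP9 stayed between 1.20 and 11.2 CPM, with means of 2.35 ± 0.597, 3.58 ± 2.08, 5.97 ± 4.60 and 3.77 ± 1.71 CPM in juvenile control, juvenile ischemic, neonatal control and neonatal ischemic mucosa (SD, n = 3). MMP13, the only collagenase past the filter, was lower still, at 1.57 ± 0.789, 1.13 ± 0.659, 2.83 ± 1.32 and 3.10 ± 1.21 CPM in that order. Neither gene had an adjusted p under 0.05 in any comparison, and MMP13 came closest in ischemic mucosa, where the ages did not overlap (log2 fold change 1.53 ± 0.61, adjusted p = 0.0726).

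Of the membrane-bound MMPs, MMP14, which activates MMP2 at the cell surface, was at 67.9, 69.1 and 92.7 CPM in juvenile control and 129.7, 96.5 and 134 in juvenile ischemic samples, again with no overlap (log2 fold change 0.70 ± 0.24, adjusted p = 0.175). Neonatal control samples held 91.2, 154 and 84.0 CPM and neonatal ischemic samples 52.4, 102 and 74.7, and these overlapped. MMP15 differed from most of the family in direction. It stood at 139, 102 and 95.1 CPM in juvenile control samples and 43.8, 95.9 and 58.2 in juvenile ischemic ones, against 33.1, 46.3 and 44.0 in neonatal control and 23.7, 31.6 and 32.9 in neonatal ischemic ones. In each condition every neonatal sample lay below every juvenile one. The log2 fold change of neonates against juveniles was -1.44 ± 0.27, adjusted p = 0.00623 in control and -1.14 ± 0.29, adjusted p = 0.0120 in ischemic mucosa, and leaving out any one sample ended neither call. With ischemia in juveniles it was -0.72 ± 0.28, adjusted p = 0.213, with juvenile ischemic B inside the range of the controls.

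MMP16, another membrane-type MMP, was scarce, at 1.08, 2.08 and 0.786 CPM in juvenile control and 5.73, 4.04 and 3.69 in juvenile ischemic samples. Neonatal control samples had 6.88, 15.6 and 6.58 CPM and neonatal ischemic ones 2.12, 6.89 and 2.51. The log2 fold change was 2.74 ± 0.53, adjusted p = 0.00754 between the control groups, 1.64 ± 0.45, adjusted p = 0.115 with ischemia in juveniles and -1.55 ± 0.55, adjusted p = 1 with ischemia in neonates. Of these the first passed the threshold, and it held when any one sample was left out. MMP25, an MMP anchored to the membrane through a lipid and known from leukocytes, was lower in ischemic neonates, at 8.47, 5.74 and 7.75 against 19.0, 15.1 and 13.9 CPM in ischemic juveniles (log2 fold change -1.05 ± 0.28, adjusted p = 0.0149), a call lost without juvenile ischemic A (adjusted p = 0.0732). Control samples had 13.5, 8.70 and 12.6 CPM in juveniles and 8.29, 12.8 and 5.57 in neonates.

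**Figure D3:**
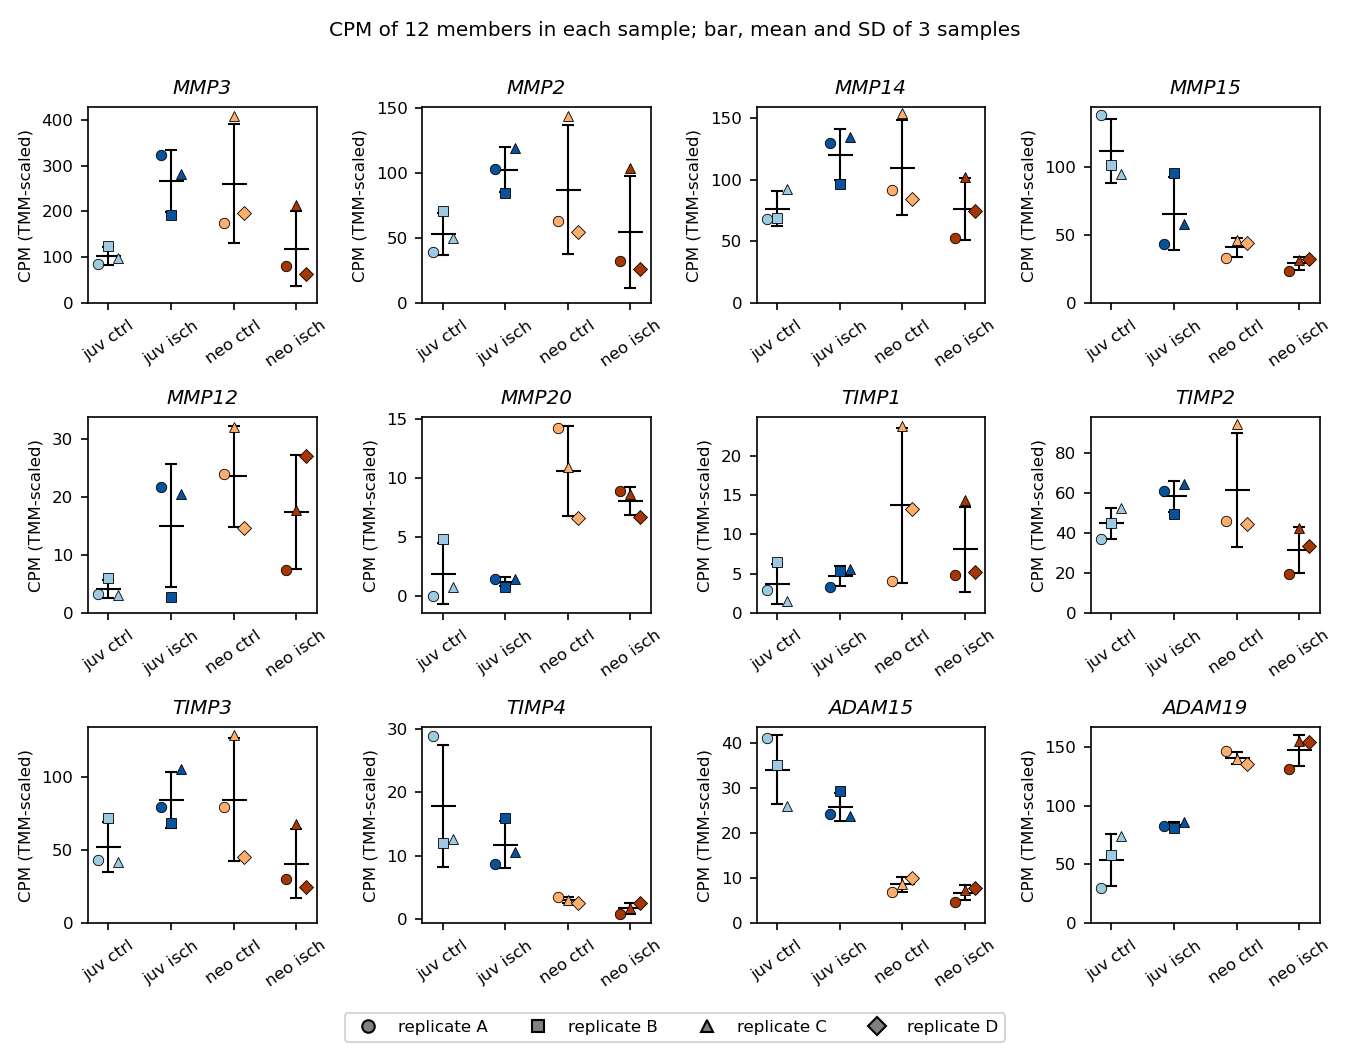
CPM of 12 members in each sample by group (juv, juvenile; neo, neonatal; ctrl, control; isch, ischemic), with a symbol for the replicate letter and the mean and SD of 3 samples as bars. MMP3 is high in juvenile ischemic and neonatal control samples, TIMP4 and ADAM15 are low in all neonatal samples, and replicate C tops the neonatal control group for MMP2, MMP3, MMP14 and TIMP1 to TIMP3.

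All 4 TIMPs were measured. TIMP1 (chrX:42103251-42106289, plus strand), TIMP3 (chr5:12185816-12242599, minus strand) and TIMP4 (chr13:68179803-68191199, minus strand) each lie within a gene of the synapsin family on the opposite strand, and an exon of TIMP4 overlaps one of SYN2. TIMP1, the secreted inhibitor often induced in injury, was at 2.95, 6.49 and 1.57 CPM in juvenile control, 3.29, 5.31 and 5.61 in juvenile ischemic, 4.15, 23.8 and 13.2 in neonatal control and 4.82, 14.4 and 5.24 in neonatal ischemic samples. No comparison of TIMP1 passed the threshold, with log2 fold changes of 0.24 and -0.86 for ischemia in juveniles and neonates and 1.74 and 0.65 for age in control and ischemic mucosa. Neonatal control C was the highest sample, and every pair of groups overlapped.

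TIMP2, which also takes part in the activation of MMP2 by MMP14, was at 37.1, 45.1 and 52.7 CPM in juvenile control and 61.0, 49.7 and 64.4 in juvenile ischemic samples. In neonates it was at 46.0, 94.4 and 44.5 CPM in control and 19.6, 42.5 and 33.4 in ischemic samples, all of the latter below all controls (log2 fold change -0.98 ± 0.38, adjusted p = 1). Ischemic neonates were below ischemic juveniles (log2 fold change -0.88 ± 0.28, adjusted p = 0.0309), a call lost without juvenile ischemic A or C or neonatal ischemic A (adjusted p from 0.0913 to 0.108). TIMP3, which is bound to the matrix and also inhibits ADAM17, was at 43.3, 71.9 and 41.7 CPM in juvenile control and 79.5, 68.3 and 105 in juvenile ischemic samples. It was at 79.6, 129 and 45.1 CPM in neonatal control and 30.0, 67.8 and 24.7 in neonatal ischemic samples, where ischemic sample C overlapped the controls. Its log2 fold change with ischemia was 0.72 ± 0.26, adjusted p = 0.191 in juveniles and -1.09 ± 0.46, adjusted p = 1 in neonates. Between the ages it was -1.09 ± 0.34, adjusted p = 0.0286 in ischemic mucosa, a call lost without juvenile ischemic A or C or neonatal ischemic A or D (adjusted p from 0.0647 to 0.112).

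TIMP4 separated the ages in both conditions. Juvenile samples held 28.9, 11.9 and 12.6 CPM in control and 8.73, 15.9 and 10.6 in ischemic mucosa, and neonatal samples 3.44, 3.07 and 2.53 in control and 0.770, 1.72 and 2.58 in ischemic mucosa. Every neonatal value was below every juvenile one. Relative to juveniles, TIMP4 was 5.79-fold lower in neonatal control (log2 fold change -2.53 ± 0.44, adjusted p = 0.00433) and 6.20-fold lower in neonatal ischemic mucosa (log2 fold change -2.63 ± 0.44, adjusted p = 0.00156), and both calls held when any one sample was left out. Ischemia gave -0.58 in juveniles and -0.79 in neonates on the log2 scale, neither past the threshold.

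Summed per length, the MMPs gave 134 ± 15.4 RPKM in juvenile control, 262 ± 54.0 in juvenile ischemic, 255 ± 116 in neonatal control and 139 ± 71.8 in neonatal ischemic mucosa (SD, n = 3). The TIMPs gave 31.7 ± 6.26, 42.7 ± 6.24, 54.6 ± 28.2 and 29.1 ± 15.2 RPKM in the same order. Neonatal controls A and D without C stood at 187 and 191 RPKM for the MMPs and at 36.0 and 40.6 for the TIMPs. The ratio of summed MMP to summed TIMP was 4.27, 3.89 and 4.68 in the juvenile control samples and 7.60, 5.22 and 5.66 in the juvenile ischemic ones, without overlap. With MMP3 left out of the sum, which was done after its values were seen, the ratio was 2.45, 1.94 and 2.53 in the juvenile control and 2.63, 2.16 and 2.22 in the juvenile ischemic samples, which overlapped. In neonates the ratio with MMP3 was 5.18, 4.47 and 4.70 in control and 5.05, 4.78 and 4.59 in ischemic samples, which overlapped. Without MMP3 it was 2.22, 1.60 and 1.73 in neonatal control and 2.39, 1.985 and 2.86 in neonatal ischemic samples, which also overlapped. These are transcript levels and do not measure the activity of the enzymes, and with 3 against 3 samples an exact two-sided permutation test cannot give a p under 0.1.

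ADAM10 and ADAM17 are well-studied sheddases. ADAM10, which cuts Notch receptors and E-cadherin, was at 361, 305 and 255 CPM in juvenile control and 242, 314 and 251 in juvenile ischemic samples, and at 176, 187 and 177 in neonatal control and 139, 172 and 181 in neonatal ischemic samples. Each neonatal sample was below each juvenile one. On the log2 scale, neonates differed from juveniles by -0.77 ± 0.25, adjusted p = 0.0552 in control and -0.69 ± 0.22, adjusted p = 0.0302 in ischemic mucosa, a call lost in ischemic mucosa without juvenile ischemic A, B or C or neonatal ischemic A or C (adjusted p from 0.0535 to 0.108). ADAM17, the enzyme that releases tumor necrosis factor and several ligands of the epidermal growth factor receptor, was at 38.8 ± 3.59, 46.5 ± 2.91, 49.5 ± 3.05 and 50.04 ± 5.53 CPM in juvenile control, juvenile ischemic, neonatal control and neonatal ischemic mucosa (SD, n = 3). Its log2 fold changes lay between 0.02 and 0.36 in the 4 comparisons, and none passed the threshold.

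ADAM9 and ADAM19, sheddases of the meltrin group, were higher in neonates in both conditions. ADAM19 was at 30.2, 58.4 and 73.9 CPM in juvenile control and 82.9, 81.3 and 85.9 in juvenile ischemic samples, against 146, 139.9 and 136 in neonatal control and 131, 155 and 154 in neonatal ischemic samples. The log2 fold change was 1.39 ± 0.34, adjusted p = 0.0215 in control and 0.84 ± 0.19, adjusted p = 0.00652 in ischemic mucosa, the first a call lost without juvenile control A or B or neonatal control C (adjusted p from 0.0547 to 0.0595). ADAM9 was at 56.3 ± 11.96, 73.8 ± 7.79, 135 ± 25.1 and 133 ± 12.3 CPM in the 4 groups (SD, n = 3), which gave log2 fold changes of 1.27 ± 0.27, adjusted p = 0.0116 in control and 0.87 ± 0.20, adjusted p = 0.00633 in ischemic mucosa. The first of these was lost without juvenile control A (adjusted p = 0.0544) and without both libraries rich in multiply aligned reads (adjusted p = 0.0524). Neonatal values of both genes lay above all juvenile ones, and ischemia in neonates gave log2 fold changes close to 0 (-0.03 for ADAM9 and 0.06 for ADAM19).

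ADAM12, a meltrin of mesenchymal cells, was at 0.786, 1.56 and 0.786 CPM in juvenile control and 6.30, 1.94 and 5.77 in juvenile ischemic samples, and at 3.97, 12.7 and 4.05 in neonatal control and 6.93, 12.1 and 4.95 in neonatal ischemic samples. Between the control groups the log2 fold change was 2.64 ± 0.63, adjusted p = 0.0177, a call lost without juvenile control A or neonatal control C (adjusted p from 0.0743 to 0.0782). ADAM15, which is known from epithelium and endothelium, went the opposite way with age. It was at 41.1, 35.2 and 25.9 CPM in juvenile control and 24.2, 29.5 and 23.7 in juvenile ischemic samples, against 6.88, 8.81 and 10.1 in neonatal control and 4.82, 7.47 and 7.90 in neonatal ischemic samples. Neonates differed from juveniles by -2.02 ± 0.31, adjusted p = 0.00253 on the log2 scale in control and -1.90 ± 0.28, adjusted p = 8.70e-04 in ischemic mucosa, and neither call was lost when any one sample was left out.

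ADAM28, a sheddase known from lymphocytes, was at 3.04, 5.84 and 5.50 CPM in juvenile control and 12.2, 11.3 and 11.7 in juvenile ischemic samples, against 8.03, 11.5 and 10.1 in neonatal control and 4.24, 8.61 and 8.64 in neonatal ischemic samples. ADAM7, which lacks the catalytic motif and is known from the epididymis, had 45 counts in the neonatal controls (18, 27 and 0) against 2 in the juvenile controls. This is a ratio of 29.1 with a 95% exact counting interval from 7.59 to 247, which covers counting error only and not the spread between samples. Neonatal control D, with no count, overlapped the juveniles. ADAM7 was called in control mucosa (adjusted p = 0.0276), where the group with the higher level was also the one that took it past the filter. The call was lost without juvenile control A or B or neonatal control C (adjusted p from 0.0649 to 0.103). In the ischemic groups ADAM7 had 14 counts in juveniles (10, 0 and 4) and 7 in neonates (3, 1 and 3).

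The procollagen N-proteinases, which trim the ends of new fibrillar collagens, are ADAMTS2, ADAMTS3 and ADAMTS14. ADAMTS2 was at 4.52, 8.31 and 7.86 CPM in juvenile control and 15.9, 10.3 and 16.7 in juvenile ischemic samples. In neonates it was at 13.7, 39.8 and 11.14 CPM in control and 7.70, 17.2 and 7.61 in ischemic samples, with control C apart from all others. The control groups differed by a log2 fold change of 1.70 ± 0.52, adjusted p = 0.0438, a call lost without juvenile control A, B or C or neonatal control C (adjusted p from 0.0665 to 0.192). ADAMTS3 was at 13.5, 8.45 and 10.7 CPM in ischemic juveniles against 3.83, 5.13 and 3.93 in their controls. In ischemic neonates it was at 4.04, 8.04 and 3.84 CPM, a log2 fold change against juveniles of -1.14 ± 0.36, adjusted p = 0.0301, a call lost without juvenile ischemic A or C or neonatal ischemic A or D (adjusted p from 0.0849 to 0.125). ADAMTS14 was scarce in juvenile controls, at 0.786, 0.714 and 0.786 CPM, and reached 5.01, 2.47 and 3.53 in juvenile ischemic samples (log2 fold change 2.33 ± 0.51, adjusted p = 0.0824), while neonatal samples lay at 1.59, 0.801 and 0.506 in control and 1.93, 1.72 and 1.03 in ischemic mucosa.

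Of the proteoglycanases, which cleave aggrecan and versican, ADAMTS5 was at 2.65, 3.50 and 4.72 CPM in juvenile control and 14.3, 7.40 and 9.13 in juvenile ischemic samples, with no overlap (log2 fold change 1.68 ± 0.39, adjusted p = 0.0857). Neonatal control samples had 14.3, 24.7 and 6.58 CPM and neonatal ischemic samples 5.39, 17.2 and 3.32. Neonatal controls were above juvenile controls (log2 fold change 2.21 ± 0.50, adjusted p = 0.0151), a call lost without juvenile control A or neonatal control C (adjusted p from 0.0598 to 0.0631). ADAMTS9 was at 8.45, 20.0 and 18.1 CPM in juvenile control, 29.5, 33.1 and 27.7 in juvenile ischemic, 32.8, 113 and 48.1 in neonatal control and 40.4, 79.8 and 24.8 in neonatal ischemic samples. Its difference between the controls was 2.09 ± 0.51, adjusted p = 0.0227 on the log2 scale, a call lost without juvenile control A or neonatal control C (adjusted p from 0.0664 to 0.0675). The call was also lost without both libraries rich in multiply aligned reads (adjusted p = 0.0531).

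ADAMTS8 was called in the controls at 6.79, 12.5 and 3.54 CPM in neonates against 0.982, 2.79 and 0.786 in juveniles (log2 fold change 2.19 ± 0.60, adjusted p = 0.0310), a call lost without juvenile control A or C or neonatal control A or C (adjusted p from 0.0548 to 0.122). In ischemic samples it was at 3.72, 2.69 and 2.56 CPM in juveniles and 4.62, 10.3 and 3.99 in neonates. ADAMTS1 had no adjusted p under 0.05 in any comparison, at 6.99 ± 3.45, 13.4 ± 2.26, 15.6 ± 5.93 and 11.4 ± 5.13 CPM in juvenile control, juvenile ischemic, neonatal control and neonatal ischemic mucosa (SD, n = 3).

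Among the remaining ADAMTS genes, ADAMTS19 and ADAMTS6 had, with MMP3, the lowest p-values for ischemia in juveniles. ADAMTS19 was at 13.4, 16.9 and 11.8 CPM in juvenile control and 41.7, 30.7 and 29.0 in juvenile ischemic samples (log2 fold change 1.29 ± 0.25, adjusted p = 0.0742). In neonates it was at 13.2, 47.4 and 10.1 CPM in control and 10.4, 20.7 and 7.46 in ischemic samples, so that ischemic neonates lay below ischemic juveniles (log2 fold change -1.50 ± 0.35, adjusted p = 0.00716), a call that held when any one sample was left out. ADAMTS6 was at 16.2, 17.5 and 19.7 CPM in juvenile control and 63.7, 37.4 and 34.9 in juvenile ischemic samples (log2 fold change 1.42 ± 0.29, adjusted p = 0.0742), against 37.1, 37.0 and 21.8 in neonatal control and 48.5, 29.3 and 29.8 in neonatal ischemic samples.

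ADAMTS10, a protein of fibrillin microfibrils, was higher in neonates in both conditions, at 7.16 ± 1.80, 10.6 ± 1.84, 21.7 ± 3.54 and 20.6 ± 0.709 CPM in juvenile control, juvenile ischemic, neonatal control and neonatal ischemic mucosa (SD, n = 3). Its log2 fold change was 1.64 ± 0.34, adjusted p = 0.00957 in control and 0.99 ± 0.25, adjusted p = 0.0116 in ischemic mucosa, the second lost without juvenile ischemic C (adjusted p = 0.0706). ADAMTS17 was at 8.38, 15.0 and 7.59 CPM in neonatal and 0.393, 2.86 and 0.786 in juvenile controls (log2 fold change 2.76 ± 0.66, adjusted p = 0.0183). This call was lost without neonatal control C (adjusted p = 0.0665) and without both libraries rich in multiply aligned reads (adjusted p = 0.0582). In ischemic mucosa it was at 3.72, 1.79 and 2.56 CPM in juveniles and 3.47, 14.9 and 5.10 in neonates. ADAMTS7, which cleaves cartilage oligomeric matrix protein, was at 8.65, 24.6 and 13.7 CPM in neonatal control against 5.97, 10.9 and 3.84 in neonatal ischemic samples (log2 fold change -1.29 ± 0.50, adjusted p = 1). It was at 2.85, 5.58 and 5.50 CPM in juvenile controls, a log2 fold change between the controls of 1.81 ± 0.48, adjusted p = 0.0277, a call lost without juvenile control A or B or neonatal control C (adjusted p from 0.0532 to 0.114). All 16 ADAMTS genes tested had a lower log2 fold change with ischemia in neonates than in juveniles, and edgeR called the difference for none of them (0 of 16).

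Besides TIMP4, exons of MMP16, MMP28, ADAM12, ADAM17, ADAM19, ADAMTS1, ADAMTS6, ADAMTS7, ADAMTS9, ADAMTS13, ADAMTS14 and ADAMTS19 overlap those of another annotated gene, and how strand was used in counting is not given in the sources used here. Reads in those stretches cannot be assigned to one gene with certainty.

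Markers of other cell types moved with these genes. Fibroblast markers (DCN, LUM, PDGFRA, COL1A1, COL1A2 and COL3A1, all 6 measured) summed to 479, 891 and 792 CPM in juvenile control and 1491, 1136 and 1485 in juvenile ischemic samples. In neonates they summed to 1585, 4330.4 and 1537 CPM in control and 758, 2994 and 704 in ischemic samples. The most abundant, COL3A1, was at 245 ± 88.8, 480.4 ± 77.1, 1024 ± 669 and 571 ± 526 CPM (SD, n = 3), and no marker of the 6 was at the floor. The juvenile ischemic samples were above the juvenile controls, and the 2 neonatal replicates named C were the highest of all 12. With edgeR 4 of the 6 were called, all higher, in neonatal against juvenile controls (7.03% of all genes). Without neonatal control C, 2 were called higher (4.02% of all genes). In each of the other 4 tests edgeR called 0. DESeq2 called 4, all higher, for ischemia in juveniles (2.16% of all genes).

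Across the 12 samples, the correlation (Pearson's r) of log2(CPM + 1) with log2 of this marker sum plus 1 was 0.95 for ADAMTS2, 0.93 for ADAMTS5, 0.92 for MMP16, 0.85 for MMP3 and 0.80 for MMP2. It was 0.34 for ADAM17, -0.40 for ADAM15, -0.41 for ADAM10 and MMP15 and -0.42 for TIMP4. Without neonatal control C, r over the 11 other samples was 0.93, 0.90, 0.87, 0.79 and 0.74 for the first 5 genes and 0.30, -0.34, -0.38, -0.46 and -0.40 for ADAM17, ADAM15, ADAM10, MMP15 and TIMP4. These points share libraries and groups, and r is given as a description. Smooth muscle markers (6 of 6 measured, MYH11 the most abundant) summed to 432 ± 214, 753 ± 142, 929 ± 360.2 and 729.7 ± 421 CPM in the 4 groups, with 1 called lower in ischemic neonates. Of all genes, 16.6% were called lower in that test. All 6 were higher with ischemia in juveniles, 3 of them called by DESeq2 (2.16% of all genes) and 0 by edgeR. DESeq2 called 1 with a lower response in neonates (0.585% of all genes). The part of fibroblasts and muscle in the differences above was not tested.

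**Figure D4:**
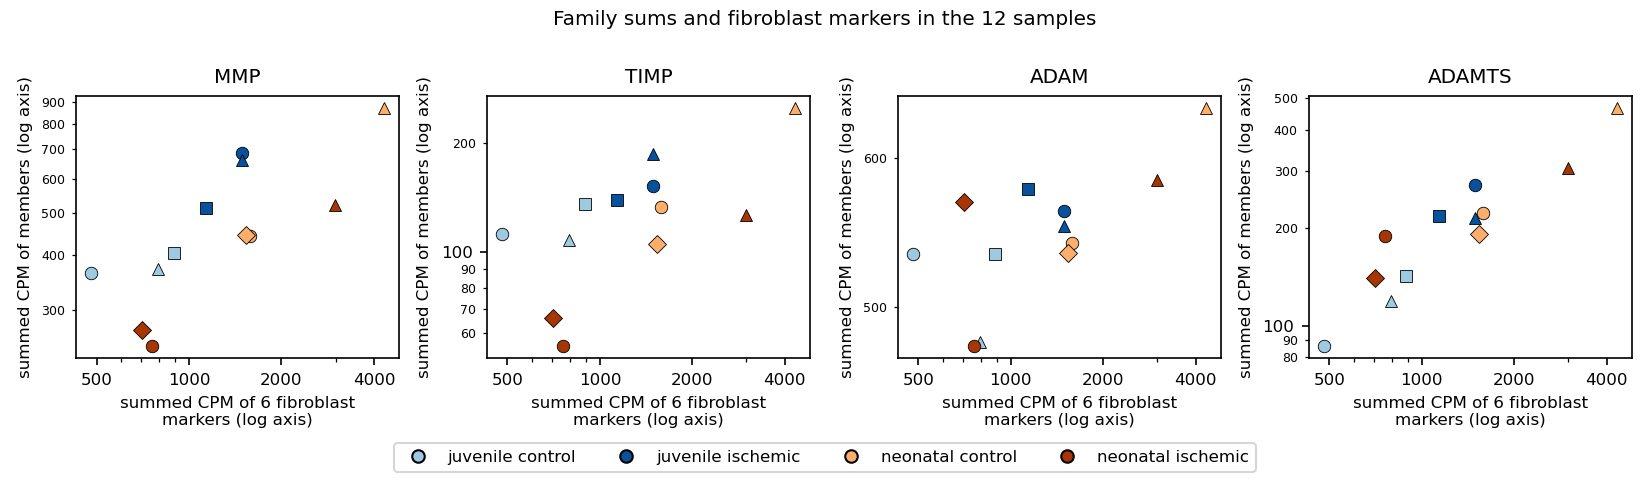
Summed CPM of each family against the summed CPM of 6 fibroblast markers in the 12 samples, both on log axes, with color for the group and the symbol for the replicate letter (circle A, square B, triangle C, diamond D). MMP and ADAMTS sums tend to be higher where the fibroblast sum is higher within each age, and the triangles of the 2 neonatal groups lie farthest right.

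Enterocyte markers (7 of 8 listed genes measured) ran with age in the opposite sense, at 25908 ± 9801 CPM in juvenile control, 13001 ± 3459 in juvenile ischemic, 3865 ± 787 in neonatal control and 3571 ± 1236 in neonatal ischemic mucosa. Their most abundant gene, ANPEP, was at 10699 ± 5069.9, 4908 ± 1932, 1208 ± 97.1 and 1296 ± 811 CPM. Of the 7, 4 were called lower in neonates in each age comparison (12.5% of all genes in control and 16.6% in ischemic mucosa). In ischemic mucosa 1 was called higher (16.6% of all genes). DESeq2 called 2 lower with ischemia in juveniles (1.60% of all genes). MMP15, TIMP4, ADAM15 and ADAM10 were also lower in neonatal samples, and whether the share of enterocytes had a part in this was not tested.

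Matrix genes, whose products are substrates of these proteases, were counted in the same tests. Of 37 tested genes for interstitial and basement membrane matrix, 20 were higher and 2 lower in neonatal than in juvenile controls (7.03% and 12.5% of all genes), with a median log2 fold change of 1.39. Without neonatal control C, 6 were higher and 2 lower (4.02% and 8.19% of all genes), with a median of 0.89, and FBLN1 was no longer called (adjusted p = 0.138). The largest calls were LAMA1 (3.78 ± 0.95, adjusted p = 0.0222), a laminin chain with 4 counts over the juvenile controls, COL5A2 (2.53 ± 0.42, adjusted p = 0.00345), a fibrillar collagen, and FBLN1 (2.23 ± 0.67, adjusted p = 0.0481), a glycoprotein of elastic fibers. In juvenile ischemic mucosa 33 of the 37 were higher, with a median of 0.92, and edgeR called 0 (19 with DESeq2, all higher, against 2.16% of all genes). In ischemic mucosa 1 was higher and 3 lower in neonates, a smaller share in either direction than the 16.6% of all genes called, with LAMA1 at 3.25 ± 0.71, adjusted p = 0.00554, COL4A6 at -1.82 ± 0.37, adjusted p = 0.00402 and TNC, tenascin-C, at -1.70 ± 0.51, adjusted p = 0.0334. COL6A2 and ACAN had at most 3 counts over the 12 libraries. For ischemia at either age, and for the difference between the ages, edgeR called 0 genes of this and of the other lists of related genes below. By DESeq2, the response was lower in neonates than in juveniles for 4 of the 37 (0.585% of all genes).

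Regulators of MMPs and of plasminogen, the precursor of a protease that activates several pro-MMPs, were called by edgeR in the age comparisons. By DESeq2, 2 of the 14 tested were also higher with ischemia in juveniles (2.16% of all genes), and 1 had a lower response in neonates than in juveniles (0.585% of all genes). By edgeR, 3 of the 14 were higher and 0 lower in neonatal controls (7.03% and 12.5% of all genes), and none of the 14 (0) was called without neonatal control C. RECK, a membrane inhibitor of MMPs, was at 12.9 ± 5.07 against 4.36 ± 1.75 CPM (SD, n = 3; log2 fold change 1.62 ± 0.46, adjusted p = 0.0356), and THBS2 and SPOCK2 differed by 1.27 and 0.95. In ischemic mucosa 1 was higher and 5 lower in neonates (16.6% of all genes in each direction). A2M, the general protease trap, was at 11.2 ± 7.27 CPM in neonates and 54.9 ± 22.2 in juveniles (log2 fold change -2.45 ± 0.45, adjusted p = 0.00298). THBS1 was at 82.0 ± 46.2 against 280.5 ± 66.7 CPM (log2 fold change -1.80 ± 0.37, adjusted p = 0.00454), and PLAU, urokinase, was at 17.5 ± 2.85 against 58.0 ± 16.5 CPM (log2 fold change -1.73 ± 0.28, adjusted p = 0.00129).

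Known partners of ADAM10 and ADAM17 numbered 9 tested, of which 2 were lower in neonates in each condition, where 12.5% (control) and 16.6% (ischemic) of all genes were lower, and 0 were higher. At 9 genes, these counts are near the share over all genes. TSPAN15, a tetraspanin partner of ADAM10, had log2 fold changes of -1.61 ± 0.30, adjusted p = 0.00612 in control and -1.13 ± 0.30, adjusted p = 0.0145 in ischemic mucosa. FRMD8, which steadies ADAM17 at the surface, was lower in control mucosa (-1.16 ± 0.35, adjusted p = 0.0425) and TSPAN5 in ischemic mucosa (-1.70 ± 0.44, adjusted p = 0.0120). Of 24 tested substrates of ADAM10 or ADAM17, 7 were lower and 2 higher in neonatal controls (12.5% and 7.03% of all genes). In ischemic neonates 10 were lower and 2 higher (16.6% of all genes in each direction). Without neonatal control C, 1 of the partners and 5 of the substrates were lower in neonatal controls and 0 higher, FRMD8 and BTC no longer being called. DESeq2 called 1 substrate higher with ischemia in juveniles (2.16% of all genes) and 1 with a lower response in neonates (0.585% of all genes). It called 0 partners in either test. FASLG, the ligand of the death receptor Fas, differed by -3.12 ± 0.38, adjusted p = 9.47e-04 in control and -3.78 ± 0.45, adjusted p = 3.47e-04 in ischemic mucosa. The growth factors of the epidermal growth factor family among the largest calls were HBEGF (-2.43) and BTC (2.19) in control and AREG (-2.93) in ischemic mucosa, where the Notch ligand DLL1 was also lower (-1.94).

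Of 11 genes for AP-1 subunits and other immediate early genes, 1 was lower in neonatal controls (12.5% of all genes) and 3 in ischemic neonates (16.6% of all genes), with 0 higher in either. The count in controls was thus no higher than the share over all genes. For ischemia in juveniles DESeq2 called 3 of the 11 higher (2.16% of all genes), namely FOS, FOSB and EGR1, of which FOSB was named after its values were seen, and edgeR 0. FOSL2 differed by -1.60 ± 0.26, adjusted p = 0.00323 in control and -0.90 ± 0.31, adjusted p = 0.0414 in ischemic mucosa. FOS was at 34.5 ± 16.5 CPM in ischemic neonates against 159 ± 34.2 in ischemic juveniles (log2 fold change -2.18 ± 0.33, adjusted p = 9.09e-04), and EGR1 differed by -0.95 ± 0.31, adjusted p = 0.0331. Cytokines and other inflammatory genes linked to MMP expression were called in both directions. Of these 12 genes, 3 were higher and 2 lower in neonatal controls (7.03% and 12.5% of all genes). In ischemic neonates 1 was higher and 5 lower (16.6% of all genes in each direction). Without neonatal control C, 1 AP-1 or immediate early gene was higher and 1 lower in neonatal controls. Of the inflammatory genes, 1 was then higher and 2 lower, with IL1A no longer called (adjusted p = 0.0673). DESeq2 called 2 of the 12 inflammatory genes higher with ischemia in juveniles (2.16% of all genes) and 1 with a lower response in neonates (0.585%). IL1A was higher in neonatal controls (3.13 ± 0.72, adjusted p = 0.0156) as was PTGS2, cyclooxygenase-2 (1.95 ± 0.48, adjusted p = 0.0207), whereas IFNG, interferon gamma, was lower (-3.38 ± 0.65, adjusted p = 0.00696). In ischemic mucosa IFNG had 1 count in neonates and 195 in juveniles, a ratio of 150.1 with a 95% exact counting interval from 26.6 to 5958. The interval covers counting error only, not the spread between samples. IL22 was higher in ischemic neonates by edgeR (2.52 ± 0.87, adjusted p = 0.0428) but was not called by DESeq2 (adjusted p = 0.0731). Sample D held 32 of its 36 neonatal counts. TGFB3 was lower in ischemic neonates (-1.34 ± 0.44, adjusted p = 0.0361). IL1B and IL17A had at most 3 counts over the 12 libraries.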

How the data were processed

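The authors made total RNA libraries from mucosal scrapings and sequenced them single-end. The processing notes name the build Sscrofa11.1, and the aligner and counting program are not given in the sources used here. They deposited counts per gene without normalization, in one table and per sample. ADAMTS8 is listed more than once in the single-sample files, where its first entry is 0; the other 61 members had equal counts in both. Tables of the authors' comparisons (fold changes and p-values) were not used. Both neonatal samples called C here carry B in one label and C in another. Reads on no gene (26.6% to 50.8%) stayed out of totals and tests. Their share was 26.6%, 28.4% and 45.9% in juvenile controls A, B and C and 50.5%, 48.8% and 42.3% in the juvenile ischemic samples. In neonates it was 37.1%, 36.2% and 45.3% in controls A, C and D and 50.8%, 38.0% and 36.5% in the ischemic samples. The groups overlapped at both ages, and whether this share had a part in the differences above was not tested.

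CPM were scaled by TMM factors (0.810 to 1.15). Genes above 1 CPM in at least 2 of 12 samples were tested with edgeR 4.0.16 (quasi-likelihood, R 4.3.3), each pair of groups in a fit of 6 samples and the difference of responses in one fit of 12, with Benjamini-Hochberg adjustment over all 14191 genes and a threshold of 0.05. SE is the log2 fold change over the root of the quasi-F statistic. DESeq2 1.42.0, RLE normalization, other filters, one fit of 12 samples, a replicate block, an adjusted p under 0.1, and left-out libraries were alternatives. The scripts were tested on simulated data. Promoters and exon lengths came from RefSeq (Sscrofa11.1, 58 members matched). Genes of the lists were matched by symbol or, through the reference annotation, by Ensembl identifier.

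Members, lists (8 related, 11 of cell types, written by hand) and tests were chosen with earlier results of these data known. Named members were those called in any comparison (the 10 largest with full values, the rest at least by name), a fixed set of TIMPs and well-known proteases, and, where nothing was called, the 5 with the lowest p. Of a related list, the 3 largest calls were named, and of a cell type list the most abundant gene.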

Additional observations from a re-analysis of the deposited data

Results flagged for a closer look

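The response of MMP3 to ischemia differed between the ages in the DESeq2 fit of 12 samples, by -2.57 ± 0.63 (SE) on the log2 scale (adjusted p = 0.0238), with all 3 juvenile ischemic samples above their controls and a negative log2 fold change in neonates. MMP16 differed by -3.18 ± 0.80 in the same fit (adjusted p = 0.0276). With edgeR both had an adjusted p of 0.270, with log2 differences of -2.52 and -3.12. Leaving out one library at a time gave adjusted p-values from 0.0647 to 0.670 for both genes with edgeR. The 5 members with the lowest p in that test also held ADAM28 at -1.79, ADAMTS7 at -2.27 and MMP28 at -2.53.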

How the results depend on the processing

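Of 48 named fold changes, 0 reversed under any alternative, and 13 of the 33 called kept the call under all of them. For ischemia in juveniles edgeR called 0 members, against 11 with DESeq2 (3.76% of all genes in either direction), 5 without a filter (1.22%), 8 at an adjusted p under 0.1 (2.33%) and 0 to 6 with a library left out (6 without juvenile ischemic B, 1.29%). In neonates every alternative called 0. For age in control mucosa edgeR called 18 members (7.03% of all genes higher and 12.5% lower). This count became 10 without the 2 libraries of many multiply aligned reads (2.57% and 8.55%) and 7 to 19 with a library left out. For age in ischemic mucosa 15 members (16.6% of all genes in each direction) became 8 to 18. The shares of all genes at the lowest of these counts are given with the age comparisons above. For the difference in response, DESeq2 called 2 (0.648% of all genes), and edgeR 0 whichever library was left out. The causes were not tested.

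Whether the replicate letter pairs the samples is not stated in the labels, and the letters were not treated as pairs. Correlations of deviations for the same letter were -0.0796, -0.0641 and 0.0233 in juveniles and -0.0265, 0.483 and -0.132 in neonates, which with 3 letters an age cannot settle it. With the letter as a replicate block, 4 members and 1.04% of all genes were called for ischemia in juveniles (4 and 1.98% in DESeq2), 0 in neonates (0 in DESeq2), and 0 for the difference in response (9 and 1.34% in DESeq2). The block in DESeq2 was an alternative chosen after seeing the data. Depth limited members near the floor, such as ADAM7, most in juvenile control C, neonatal control D and neonatal ischemic C.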

Other observations

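Lymphocyte markers differed with age as well. For the counts below, edgeR called 7.03% of all genes higher and 12.5% lower in neonatal controls, and 16.6% in each direction in ischemic neonates. Without neonatal control C, 4.02% were higher and 8.19% lower in neonatal controls. DESeq2 called 2.16% higher with ischemia in juveniles and 0.585% with a lower response in neonates. T and NK cell markers (5 of 5, CD3E the most abundant) summed to 649 ± 178 CPM in juvenile control, 423 ± 49.3 in juvenile ischemic, 71.3 ± 50.1 in neonatal control and 63.7 ± 36.3 in neonatal ischemic mucosa (SD, n = 3), and all 5 were called lower in neonates in both conditions. B and plasma cell markers (5 of 5, MS4A1 the most abundant) summed to 211 ± 160.4, 247 ± 56.6, 748 ± 81.9 and 803 ± 164 CPM in the same order, with 2 called higher in neonatal controls (1 without neonatal control C) and 4 in ischemic neonates. Endothelial markers (4 of 5, PECAM1) gave 192 ± 55.9, 337 ± 68.8, 371 ± 171 and 243 ± 111 CPM, with 1 called higher in neonatal controls (0 without neonatal control C) and 2 lower in ischemic neonates. DESeq2 called 2 of them higher with ischemia in juveniles and 1 with a lower response in neonates. Macrophage markers (6 of 6, C1QB) gave 350.4 ± 145, 452 ± 46.0, 423 ± 185 and 304 ± 95.7 CPM, with 1 called higher and 2 lower in ischemic neonates. Goblet and Paneth cell markers (3 of 3, MUC2) gave 637 ± 373, 1154 ± 228, 374 ± 136 and 279 ± 79.0 CPM, with all 3 called lower in ischemic neonates. In juveniles MUC2 was at 544 ± 380.1 CPM in control and 480.0 ± 240 in ischemic mucosa, and LYZ, lysozyme, at 45.7 ± 55.6 and 614 ± 466, so that the higher sum in juvenile ischemic mucosa came from LYZ (DESeq2 adjusted p = 0.0369, edgeR 0.222). LYZ was named after its values were seen. Erythrocyte markers (2 of 3, HBB) gave 3.42 ± 1.94, 17.3 ± 4.14, 88.2 ± 94.4 and 116 ± 21.1 CPM, with both called higher in neonates in each condition and, by DESeq2 alone, with ischemia in juveniles. Neutrophil markers (5 of 5 in the table and 2 tested, CSF3R) stayed at 6.20 ± 1.67, 9.03 ± 2.18, 10.8 ± 6.87 and 7.49 ± 1.62 CPM, with S100A9 at 3 counts or fewer over the 12 libraries and 0 called. Enteric glia markers (4 of 4 in the table and 2 tested, SOX10) gave 0.509 ± 0.644, 1.42 ± 0.510, 1.90 ± 1.296 and 1.09 ± 1.05 CPM, with no count of S100B and 0 called.

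Relatives of the family outside the symbols used were called in both age comparisons, where 19.6% (control) and 33.2% (ischemic) of all genes were called. A list of ADAMTS-like proteins that also held ADAMDEC1 had 8 tested genes. PAPLN was higher in neonates in control (1.99 ± 0.49, adjusted p = 0.0206) and in ischemic mucosa (1.42 ± 0.35, adjusted p = 0.00972). ADAMDEC1, a decysin of intestinal macrophages and stroma, was higher in neonates in control mucosa (1.48 ± 0.44, adjusted p = 0.0398). Neither gene was called in control mucosa without neonatal control C. By DESeq2, 2 of the 8 were higher with ischemia in juveniles (2.16% of all genes) and 1 had a lower response in neonates (0.585%). Of 7 tested genes for astacin proteases and their enhancers, 3 were called in each age comparison (2 in control mucosa without neonatal control C, PCOLCE no longer). DESeq2 called 1 of the 7 lower with ischemia in juveniles (1.60% of all genes). MEP1A, the brush border enzyme meprin A, was lower in neonates, at 1459 ± 618 CPM in juvenile control, 633 ± 149 in juvenile ischemic, 150.5 ± 38.2 in neonatal control and 123 ± 34.0 in neonatal ischemic mucosa (-3.26 ± 0.39, adjusted p = 9.08e-04 in control and -2.34 ± 0.30, adjusted p = 4.10e-04 in ischemic mucosa on the log2 scale). TLL2 was higher in both (3.62 ± 0.59, adjusted p = 0.00337 and 2.06 ± 0.54, adjusted p = 0.0133), PCOLCE was higher in control mucosa (1.44 ± 0.45, adjusted p = 0.0489) and BMP1 lower in ischemic mucosa (-0.86 ± 0.27, adjusted p = 0.0301).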
